A study of Mus musculus with 59 samples.

Results

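The genes described here are 9 genes whose human counterparts are tied to amyotrophic lateral sclerosis (ALS) or frontotemporal dementia (FTD): Optn, Sqstm1, Vcp, Ubqln2, Chmp2b, Grn, Tmem106b, Tardbp and Sod1. They were chosen by symbol, and all 9 were found among the 32070 genes listed and passed the filter on low values in both expression tables. They were followed in microglia, the macrophages that reside in the brain, purified from primary cultures of mouse pups at postnatal day 0 or 1. The genotypes differed in Tbk1, itself an ALS and FTD gene, which encodes a kinase. WT cells were Tbk1fl/fl and Cx3CR1-Cre-, HET cells were Tbk1fl/+ and Cx3CR1-Cre+, and KO cells were Tbk1fl/fl and Cx3CR1-Cre+, so the Cre recombinase under the Cx3CR1 promoter was absent from WT alone. A difference from WT therefore also holds the presence of Cre, while KO and HET share it. After 16 h in DMEM with serum and β-mercaptoethanol, cells received for 24 h fresh medium alone (UT) or medium with a stimulus. The stimuli were 100 ng/mL of LPS (lipopolysaccharide, from the outer wall of bacteria), 20 ng/mL of the cytokine interleukin-4 (IL4), and poly(I:C), a mimic of viral double-stranded RNA (pIC). No pIC dose is stated in the sources used here. There were 59 libraries in 12 groups, 5 in each but untreated WT, which had 4. No replicate 5 of that group was among the 59 libraries. Replicates are described by the submitters as independent cultures.

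These genes meet in a few cellular routes. Optineurin (Optn) and p62 (Sqstm1) are autophagy receptors, which bind ubiquitin on cargo and ATG8 proteins on the forming autophagosome, and both are known substrates of TBK1. Ubiquilin-2 (Ubqln2) carries ubiquitinated proteins to the proteasome, and the ATPase VCP (Vcp) pulls such proteins out of membranes and complexes. CHMP2B (Chmp2b) is a subunit of ESCRT-III, the filament that cuts membrane necks during endosome sorting and autophagosome closure. Progranulin (Grn) is a secreted and lysosomal glycoprotein abundant in microglia, and TMEM106B (Tmem106b) is a lysosomal membrane protein whose variants modify progranulin-linked FTD. TDP-43 (Tardbp) is the RNA-binding protein that aggregates in most ALS, and SOD1 (Sod1) is the cytosolic enzyme that dismutates superoxide.

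Levels are in TPM, a length-scaled share of all transcripts in a library, and are given as mean ± SD. Differences are on the log2(TPM + 1) scale, given with the SE of limma's moderated test, and understate the change of genes with low values. A gene was called at a Benjamini-Hochberg adjusted p of at most 0.05 over all genes tested, and every adjusted p below is from that test. A share falls when other genes rise, and in bulk cultures fewer cells of a type and less RNA per cell cannot be told apart. The total count behind each TPM value is unknown. Tbk1 itself averaged 47.5 ± 4.17 TPM in untreated WT (n = 4), 34.9 ± 1.67 in HET and 19.9 ± 4.74 in KO (n = 5 each), and it was called lower in KO than in WT in every treatment. No microglia marker was at 0 in any library, which shows that these transcripts were present and not what share of the cells were microglia. The lowest values were 1.54 TPM for Tmem119 and 1.68 TPM for P2ry12. Markers of other cells were present as well: the summed oligodendrocyte-lineage markers ran from 976 to 2387 TPM in untreated WT and from 162 to 815 in LPS-treated WT, and the neuron markers from 166 to 301 and from 42.8 to 114. In KO LPS replicate 1 the 50 most abundant genes took 38.3% of the TPM, the highest share of the 59 libraries. The other KO LPS libraries had 35.1% to 36.5%. For Grn and Tmem106b, replicate 1 was not among the libraries flagged below as standing far from their group. It was kept in the main fits, and results that rest on it are also given without it.

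The stretches upstream of Sqstm1 and Optn are shown because these autophagy receptors moved in opposite directions with LPS, as described below. Short stretches of Grn and Tardbp show the other members with a match to an NF-kB motif, NF-kB being a transcription factor activated by LPS. Capitals mark the match to GGGA, any 4 bases and CC on either strand, searched from 250 bases before to 50 bases after the gene's start in RefSeq sequences of GRCm38.p6 for the 8 members with an entry. Sequences are given 5′ to 3′ on the gene's own strand.
Sqstm1 (chr11:50210828-50211070, minus strand, upstream of the gene): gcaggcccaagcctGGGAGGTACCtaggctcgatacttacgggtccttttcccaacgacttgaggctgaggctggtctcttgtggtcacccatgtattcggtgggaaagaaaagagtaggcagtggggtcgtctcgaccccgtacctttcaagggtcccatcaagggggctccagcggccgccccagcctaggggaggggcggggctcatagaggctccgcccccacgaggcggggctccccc
Optn (chr2:5064118-5064367, minus strand, upstream of the gene): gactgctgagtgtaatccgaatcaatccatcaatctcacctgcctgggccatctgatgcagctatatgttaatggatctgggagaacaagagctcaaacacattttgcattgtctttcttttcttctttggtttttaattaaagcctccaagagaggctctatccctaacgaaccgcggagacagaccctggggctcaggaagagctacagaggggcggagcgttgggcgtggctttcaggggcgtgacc
Grn (chr11:102430373-102430402, plus strand): cagcattccaGGAGAGTCCCgcctctacgt
Tardbp (chr4:148627159-148627188, minus strand): agggttcccaGGGATTCCCCcccaagccct
Counted from the RefSeq starts, the match began 236 bases before Sqstm1, 124 before Grn and 182 before Tardbp. The Grn stretch lies within the gene as GENCODE M21 gives it, beginning 58 bases after the start of its span. Of 32851 mouse promoter windows of the same length, 20.7% held at least 1 match, against 3 of the 8 members. A match to the antioxidant response element TGACNNNGC was found in Vcp, Tmem106b and Sod1, 3 of 8, against 12.4% of all windows. The interferon-stimulated response element (GAAA, any 2 bases and GAAA) and the E-box CACGTG were searched too, and none of the 8 windows held either, against 3.44% and 7.15% of all windows. Ubqln2 had no entry in the table. These matches describe letters in a window and no binding was measured.

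Sqstm1 (Entrez 18412, chromosome 11, 50199366 to 50210827 in mm10, minus strand) was the member with the steepest rise. Untreated WT libraries had 346, 329, 315 and 327 TPM, and LPS-treated WT libraries had 648, 1125, 697, 622 and 949. No untreated library reached the lowest LPS library. With LPS, HET libraries had 507, 801, 423, 436 and 886 TPM, and KO libraries had 435, 512, 364, 585 and 527. All 5 KO libraries lay below all 5 WT libraries, and HET libraries overlapped both. The rise over UT was 1.25 ± 0.16 in WT (adjusted p = 5.9e-09), 0.81 ± 0.15 in HET (adjusted p = 7.5e-06) and 0.53 ± 0.15 in KO (adjusted p = 0.0020), with no overlap between treated and untreated libraries in each genotype. The difference between the KO and WT responses was -0.73 ± 0.22 (adjusted p = 0.015). That difference was called in all 19 fits that each left out 1 library, and without KO LPS replicate 1 it was -0.69. The corresponding difference of HET from WT was -0.44 ± 0.22 and was not called (adjusted p = 1), nor was that of KO from HET, -0.29 ± 0.21 (adjusted p = 0.46).

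Untreated Sqstm1 means were 329 ± 12.8 TPM in WT, 331 ± 29.6 in HET and 332 ± 12.3 in KO. The KO minus WT difference there was 0.01 (95% interval -0.31 to 0.33). The level under LPS was lower in KO than in WT by -0.72 ± 0.15 (adjusted p = 2.0e-04). HET lay between them, -0.43 ± 0.15 from WT (adjusted p = 0.61), a difference called in the fit without HET LPS replicate 5, where it was -0.59. The KO minus HET difference under LPS was -0.28 and was not called (adjusted p = 0.19), though it was without HET LPS replicate 3. In pIC the same gene reached 1003, 1297, 989, 1068 and 1322 TPM in WT and 1262, 898, 1012, 689 and 939 in KO. Those ranges overlap, and the KO minus WT difference in pIC was -0.26 ± 0.14 (adjusted p = 0.27). The pIC libraries are in a separate table, so their levels are set beside the untreated ones with no test: mean Sqstm1 was 3.45 times the untreated mean in WT, 3.24 times in HET and 2.89 times in KO, every pIC library above every untreated one. For 13752 genes the log2 ratio of the pIC to the untreated mean, each plus 1 TPM, was taken too. Its median was -0.47 in WT, -0.45 in HET and -0.51 in KO.

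Optn (Entrez 71648, chromosome 2, 5020642 to 5064051, minus strand), the other receptor, went the opposite way with LPS. Untreated WT libraries had 12.4, 13.9, 12.9 and 13.3 TPM, and LPS-treated ones 7.19, 6.91, 5.67, 4.71 and 5.65. Optn fell by 1.02 ± 0.12 in WT (adjusted p = 1.4e-09), by 1.34 ± 0.11 in HET (adjusted p = 2.2e-13) and by 1.03 ± 0.11 in KO (adjusted p = 3.7e-10), again without overlap. With quantile normalization the WT value was -0.32 and was not called (adjusted p = 0.086). In pIC the 5 WT libraries had 16.4, 14.6, 14.0, 19.0 and 17.7 TPM, so every one lay above the untreated WT libraries. The pIC mean was 1.25 times the untreated mean in WT, 1.19 times in HET and 1.30 times in KO, where the ranges overlapped. In WT and HET, LPS and pIC libraries thus stood on opposite sides of the untreated libraries for Optn. For Sqstm1 both stood above the untreated libraries in each genotype. The pIC levels were again set beside the untreated ones with no test.

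Ubqln2 (Entrez 54609, X chromosome, 153498227 to 153501570, plus strand) had the largest fall of the 9 with LPS in WT. Untreated WT libraries had 95.6, 69.0, 84.0 and 76.5 TPM and LPS-treated ones 35.8, 26.0, 30.7, 30.3 and 17.7, with no overlap. LPS minus UT was -1.53 ± 0.16 for WT (adjusted p = 1.3e-10), -1.43 ± 0.15 in HET (adjusted p = 1.4e-10) and -1.04 ± 0.15 in KO (adjusted p = 2.4e-07). The pIC means, 41.3 ± 3.11, 36.0 ± 3.62 and 34.4 ± 3.44 TPM in WT, HET and KO, were about 0.508, 0.478 and 0.474 times the untreated means. On the log2 scale these ratios lay -0.49, -0.59 and -0.55 from the median of 13752 genes for pIC. Reads of Ubqln2 may be shared with its close relative Ubqln1, which the sources used here do not resolve.

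Vcp (Entrez 269523, chromosome 4, 42979963 to 43000507, minus strand) held its share of transcripts or gained some under LPS while most genes lost. WT libraries had 251, 233, 244, 235 and 217 TPM with LPS and 277, 209, 238 and 235 without. These overlap, and the difference was -0.02 ± 0.10 (adjusted p = 0.89). In KO, LPS-treated libraries had 243, 296, 261, 276 and 292 TPM and untreated ones 220, 220, 229, 211 and 178, with no overlap. The rise in KO was 0.37 ± 0.09 (adjusted p = 4.5e-04), and in HET it was 0.19 ± 0.09 (adjusted p = 0.052), called without untreated HET replicate 1 or 3 or HET LPS replicate 5. Median-of-ratios scaling gave 0.66, 0.81 and 0.90 in WT, HET and KO, all called. The difference between the KO and WT responses, 0.39 ± 0.13, was called (adjusted p = 0.038). The call was kept in 10 of 19 fits that each left out 1 library. It was lost without untreated WT replicate 1, 3 or 4, WT LPS replicate 2 or 5, untreated KO replicate 5 or KO LPS replicate 2, 4 or 5, and with no filter on low values (adjusted p = 0.066). A related sequence, Vcp-rs, is also listed, and reads may be split between the 2 genes.

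**Figure D1:**
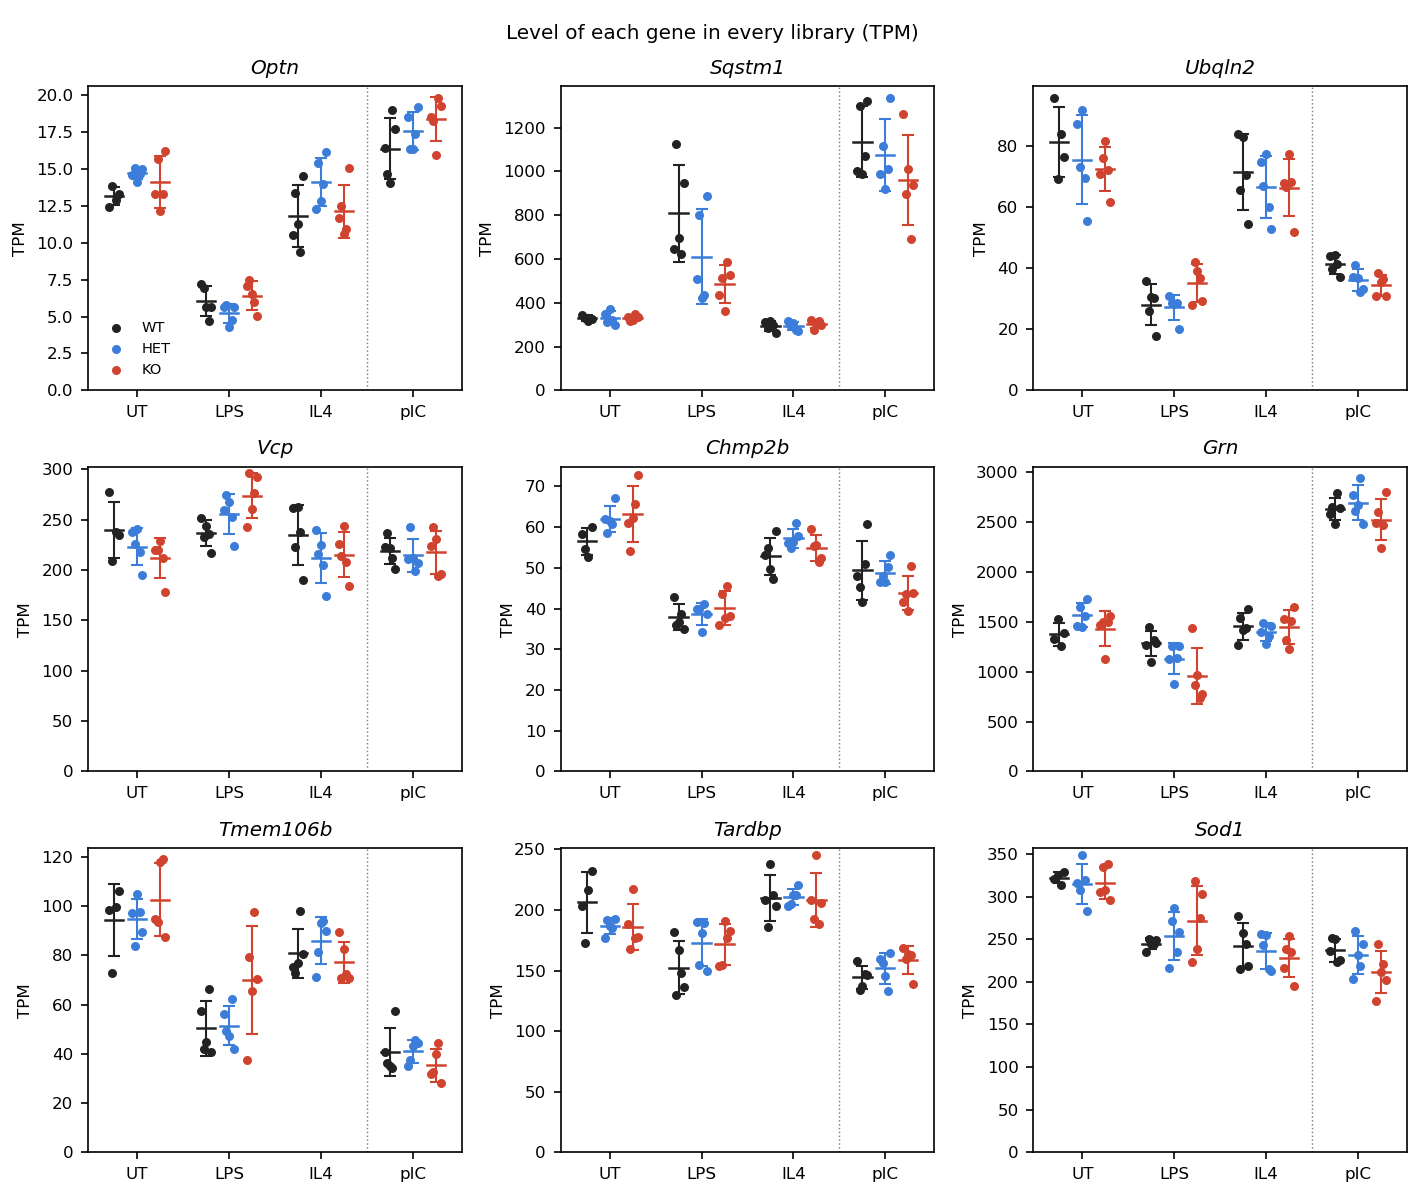
TPM of the 9 genes in every library, by treatment (x axis) and genotype (colour), with points for libraries, horizontal lines for group means and bars for ± 1 SD. The dotted line sets off the pIC libraries, which come from a separate table. Sqstm1 is high in LPS and pIC, Optn is low in LPS alone, and Grn is highest in pIC.

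Chmp2b (Entrez 68942, chromosome 16, 65539128 to 65562726, minus strand) fell with LPS in each genotype on the TPM scale. Untreated WT libraries had 58.4, 54.7, 52.7 and 60.2 TPM and LPS-treated ones 43.0, 35.9, 36.7, 38.7 and 34.9, with no overlap. The differences were -0.57 ± 0.08 in WT, -0.67 ± 0.07 in HET and -0.64 ± 0.07 in KO, with a largest adjusted p of 3.3e-08. Those values lie near the median of all genes, given below. The median-of-ratios scaling gave 0.10, -0.06 and -0.12 with no call, so its direction in WT depended on the scaling.

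Grn (Entrez 14824, chromosome 11, 102430315 to 102437048, plus strand) was the most abundant of the 9 genes, and its level differed more between pIC and LPS than between LPS and UT. Untreated WT libraries had 1326, 1525, 1259 and 1389 TPM. With LPS the WT libraries had 1263, 1452, 1101, 1322 and 1285 TPM, overlapping the untreated ones, and the difference was -0.10 ± 0.13 (adjusted p = 0.48). With median-of-ratios scaling it was 0.58 and called (adjusted p = 0.0061). With pIC they had 2584, 2651, 2486, 2795 and 2640, every one above every untreated library. The pIC mean was 1.91 times the untreated mean in WT, 1.72 times in HET and 1.76 times in KO, as levels set side by side without a test.

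Under LPS, Grn was lower in KO than in WT. HET libraries had 1125, 1253, 878, 1136 and 1259 TPM, and KO libraries had 1435, 865, 963, 739 and 775. KO replicate 1 lay between the 2 highest WT libraries, and the other 4 KO libraries lay below all 5 WT libraries. The KO minus WT difference was -0.46 ± 0.12 (adjusted p = 0.0025) and was -0.62 without that library (adjusted p = 7.4e-06). In a fit of the compared groups alone, -0.46 was not called (adjusted p = 0.063). The fall from UT was -0.48 ± 0.12 in HET (adjusted p = 5.4e-04) and -0.62 ± 0.12 in KO (adjusted p = 2.6e-05), against 0.14 and -0.09, neither called, with median-of-ratios scaling. The KO and WT responses differed by -0.52 ± 0.17 (adjusted p = 0.036), a call kept in 6 of the 19 fits that each left out 1 library (LPS replicate 1 or 3 of either genotype, untreated WT replicate 2 or untreated KO replicate 3) and lost with median-of-ratios scaling (adjusted p = 0.064), with quantile normalization (adjusted p = 0.21), with no filter on low values (adjusted p = 0.073) and in a fit of the compared groups alone (adjusted p = 0.11). Without KO LPS replicate 1 the difference was -0.67 (adjusted p = 6.9e-04).

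Tmem106b (Entrez 71900, chromosome 6, 13069759 to 13089269, plus strand) fell with LPS by 0.90 ± 0.17 in WT (adjusted p = 8.2e-06), by 0.88 ± 0.16 in HET (adjusted p = 5.4e-06) and by 0.60 ± 0.16 in KO (adjusted p = 9.75e-04). With median-of-ratios scaling the values were -0.23, -0.26 and -0.07, none of them called. Without treatment the WT libraries had 98.5, 73.0, 99.7 and 106 TPM. LPS-treated libraries had 57.5, 42.1, 44.9, 66.2 and 40.9 TPM in WT and 37.3, 79.4, 65.5, 97.4 and 70.3 in KO. The low KO value is again replicate 1, and of the other 4, the library at 65.5 lay below the highest WT library at 66.2. The KO minus WT difference was 0.43 ± 0.16 (adjusted p = 0.036), and 0.63 without KO replicate 1 (adjusted p = 2.8e-04). It lost the call in 7 of the 10 fits that each left out 1 library, namely those without replicate 2, 3 or 5 of WT or replicate 2, 3, 4 or 5 of KO, with values down to 0.29. It was also lost with no filter on low values (adjusted p = 0.071) and in a fit of the compared groups alone (adjusted p = 0.21). In pIC the means were 40.7 ± 9.61 TPM in WT, 41.1 ± 4.64 in HET and 35.3 ± 6.68 in KO, at 0.432, 0.434 and 0.344 times the untreated means with no overlap. On the log2 scale these ratios lay -0.72, -0.73 and -1.01 from the median of 13752 genes for pIC.

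Tardbp (Entrez 230908, chromosome 4, 148612382 to 148627019, minus strand) fell with LPS in WT by 0.44 ± 0.10 (adjusted p = 9.8e-05), from 206 ± 25.2 TPM (n = 4) to 152 ± 21.7 (n = 5), with overlapping libraries. The values in HET, -0.12 ± 0.09 (adjusted p = 0.24), and in KO, -0.11 ± 0.09 (adjusted p = 0.26), were not called. Median-of-ratios scaling turned all 3 to a rise, of 0.24, 0.50 and 0.42. The difference between the KO and WT responses, 0.32 ± 0.13, was not called (adjusted p = 0.091). It was called at 0.32 with the replicate number as a block (adjusted p = 0.028), and without WT LPS replicate 1, untreated WT replicate 2 or untreated KO replicate 3.

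Sod1 (Entrez 20655, chromosome 16, 90220754 to 90226329, plus strand) was the member that answered IL4. Untreated WT libraries had 321, 325, 314 and 329 TPM and IL4-treated ones 277, 215, 257, 245 and 219. The treated libraries lay below the untreated ones without overlap in all 3 genotypes, with group means of 243 ± 26.1 TPM in WT, 236 ± 21.3 in HET and 228 ± 22.5 in KO. Sod1 fell with IL4 by 0.41 ± 0.09 in WT (adjusted p = 0.0018), by 0.41 ± 0.09 in HET (adjusted p = 7.3e-04) and by 0.48 ± 0.09 in KO (adjusted p = 9.1e-05). LPS gave -0.40 ± 0.09, -0.31 ± 0.09 and -0.23 ± 0.09 on the TPM scale, but 0.28, 0.31 and 0.30 with median-of-ratios scaling, so the direction with LPS depended on the scaling while that with IL4 did not. The KO value with LPS (adjusted p = 0.016) lost its call without KO LPS replicate 1 (-0.16, adjusted p = 0.089), without KO LPS replicate 3, and in a fit of the compared groups alone (adjusted p = 0.059).

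Counted over the 9 genes, LPS gave 7 calls in WT, where 75.8% of all tested genes were called, 7 in HET, where 74.0% were, and 8 in KO, where 69.6% were. The members were thus called about as often as genes at large. In WT, 1 member was called higher, against 13.9% of all genes, and 6 were called lower, against 61.9%. HET also had 1 higher (14.3% of all genes) and 6 lower (59.7%), and KO had 2 higher (13.1%) and 6 lower (56.5%). The median difference of all 15908 genes was -0.59 for WT, -0.51 for HET and -0.44 for KO. Median-of-ratios scaling moved these to -0.06, -0.05 and -0.03. On that scale 5 members were called higher and 2 lower in WT, and 4 higher and 2 lower in both HET and KO. Of all genes, that scale gave WT 31.6% higher and 32.3% lower calls, HET 32.3% and 32.6%, and KO 29.4% and 29.1%. Relative to the median of all genes, WT Sqstm1 lay 1.84 above it, Vcp 0.57 above and Grn 0.49 above, while Ubqln2 lay 0.94 below, Optn 0.43 below and Tmem106b 0.32 below. Sqstm1 as higher and Ubqln2 as lower were called in every genotype on the TPM, median-of-ratios and quantile scales. Summed astrocyte, oligodendrocyte-lineage and neuron markers also took a lower share with LPS in WT, with 5 of 8, 9 of 10 and 6 of 8 tested markers called lower, as did microglia markers, 8 of 10. Their part in the values of the 9 genes was not tested.

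**Figure D2:**
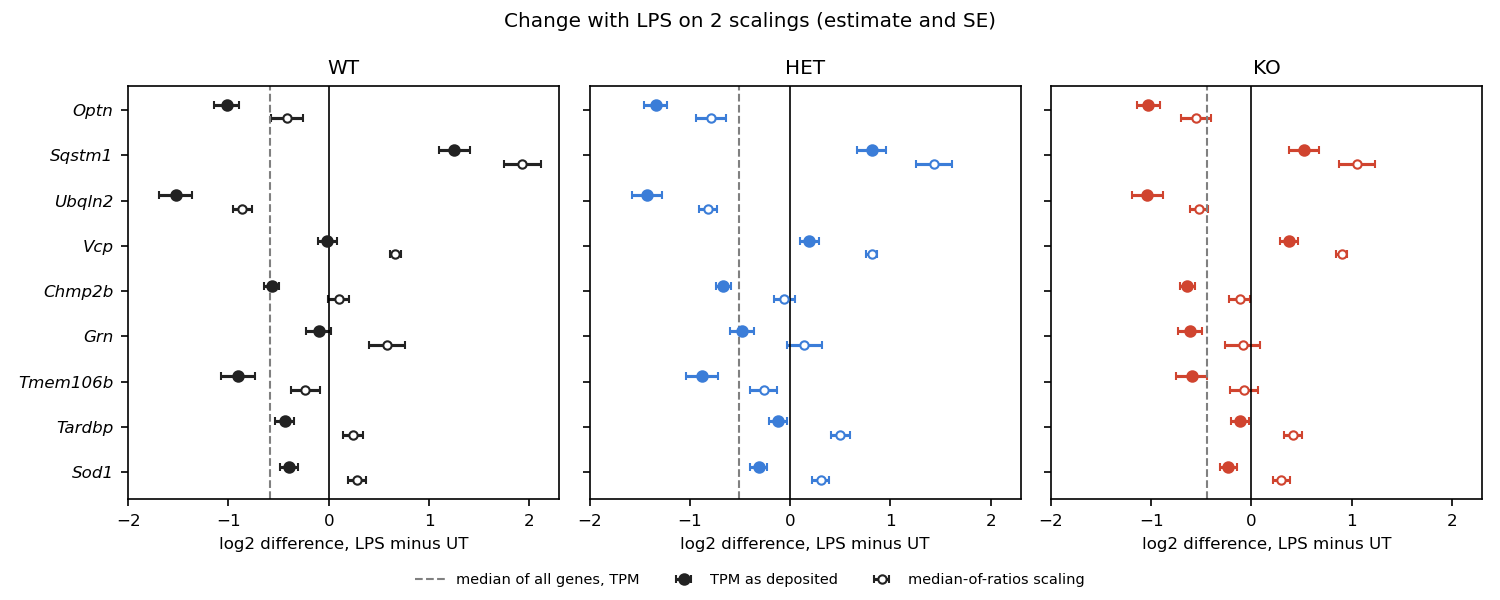
Difference between LPS-treated and untreated libraries for each gene (x axis, log2 scale, estimate with SE bars) in WT, HET and KO panels. Filled points use TPM as deposited, open points median-of-ratios scaling, and the dashed line is the median of all genes on the TPM scale, at -0.59, -0.51 and -0.44. Sqstm1 lies right of 0 and Ubqln2 and Optn left of 0 on both scales, while Sod1 and Tardbp change side.

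With IL4, Sod1 was the member called in each genotype, 1 of 9, where 6.31% of all genes were called in WT, 7.05% in HET and 8.41% in KO. In KO, Tmem106b came second at -0.40 ± 0.16 (adjusted p = 0.12), from 102.5 ± 14.8 to 77.2 ± 8.39 TPM. The replicate numbers paired untreated and IL4-treated KO libraries, and with that pairing as a block its adjusted p was 0.049, which made 2 calls. The other members' IL4 differences lay between -0.22 and 0.17. Chmp2b in KO, at -0.19 ± 0.07 (adjusted p = 0.098), was called without untreated KO replicate 2.

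Between genotypes, 0 of the 9 genes were called by limma in untreated cells and 0 in IL4-treated cells, in any pair of genotypes. Among all genes 0.0314% were called for untreated KO against WT and 0.0440% for IL4-treated KO against WT, with 0.0126% for HET against WT and 0.00629% for KO against HET in both treatments. At an unadjusted p under 0.05 there were 0 members in the 3 untreated comparisons and 1 among the 3 with IL4, which was Optn for HET against WT. The untreated KO minus WT differences ran from -0.18 for Vcp to 0.15 for Chmp2b. Under LPS, KO against WT gave 3 calls, where 27.6% of all genes were called: Sqstm1 and Grn lower, against 13.2% of all genes, and Tmem106b higher, against 14.4%. HET against WT gave 0 calls (0.0126% of all genes), with 2 members at an unadjusted p under 0.05, Sqstm1 and Tardbp. KO against HET, which holds Cre constant, gave 0 calls by limma where 24.0% of all genes were called, with 4 members at an unadjusted p under 0.05. Those were Optn (0.25 ± 0.11), Grn (-0.27 ± 0.12), Tmem106b (0.39 ± 0.16, adjusted p = 0.069) and Ubqln2 (0.35 ± 0.15). Without KO LPS replicate 1, KO against HET called 2 of them, Grn at -0.43 (adjusted p = 0.0014) and Tmem106b at 0.59 (adjusted p = 7.9e-04).

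In pIC, 0 members were called in KO against WT (11.5% of all genes), HET against WT (0%) and KO against HET (5.24%), with 1, 1 and 0 members at an unadjusted p under 0.05. The lowest adjusted p was that of Ubqln2 for KO against WT, -0.26 ± 0.09 (adjusted p = 0.062), with 44.1, 39.7, 44.4, 41.5 and 37.0 TPM in WT and 30.7, 38.4, 35.5, 36.3 and 30.9 in KO. A single KO library overlapped the WT range. Without KO pIC replicate 2 or WT pIC replicate 5 it was called. The difference of Grn in pIC was -0.06 (95% interval -0.22 to 0.10), and that of Tmem106b was -0.19 (95% interval -0.50 to 0.11). Whether the KO minus WT differences under LPS and under pIC differ from each other was not tested, because the tables are separate.

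The KO and WT responses to LPS differed for 3 members, Sqstm1, Grn and Vcp, where 16.4% of all genes were called. Same-numbered LPS and untreated libraries deviated together in both genotypes, and with the replicate number as a block 5 members were called, where 21.0% of all genes were. The block added Tardbp and Ubqln2, the latter at 0.39 (adjusted p = 0.031) against 0.49 without the block (adjusted p = 0.15). Those of HET and WT differed for 0 members (0% of all genes), with 3 at an unadjusted p under 0.05, and those of KO and HET for 0 (13.8% of all genes), with 0 at an unadjusted p under 0.05. For the responses to IL4, 0 members were called by limma and 0 had an unadjusted p under 0.05 in any pair of genotypes, and 0% of all genes were called.

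**Figure D3:**
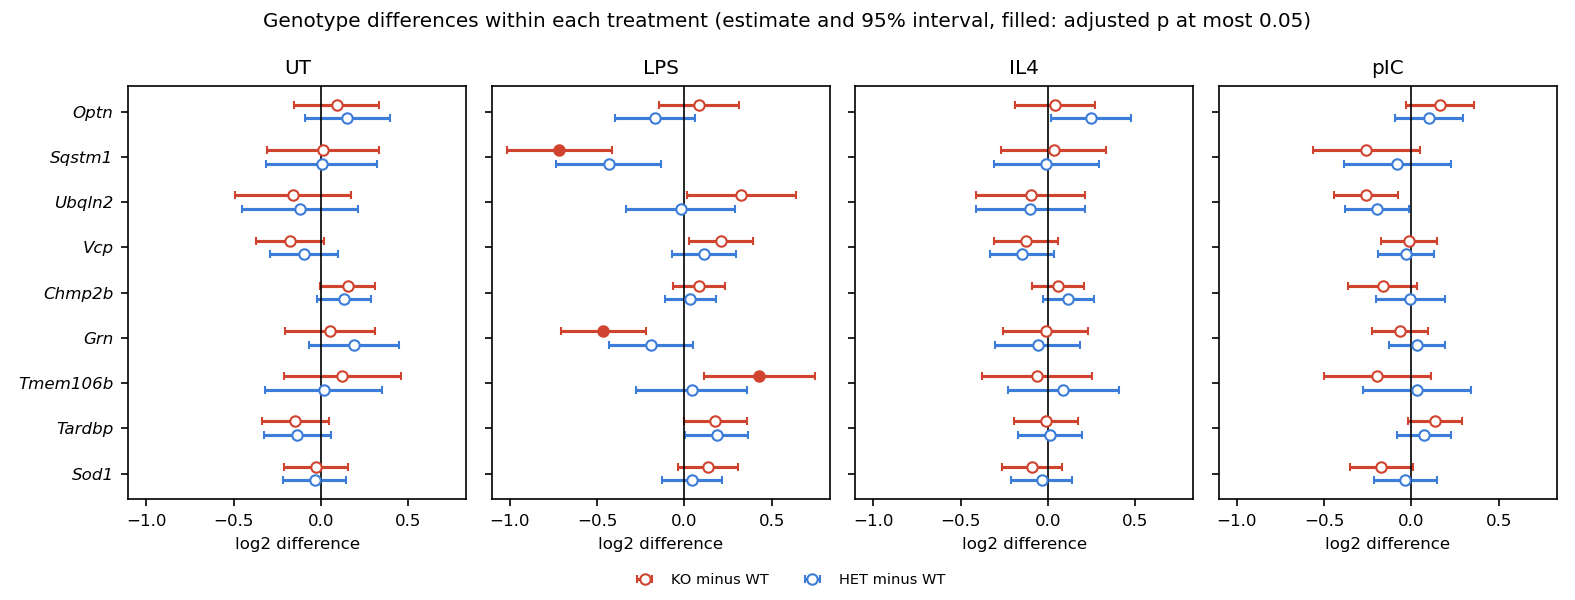
KO minus WT and HET minus WT differences of each gene (x axis, log2 scale, estimate with 95% interval) within each treatment, with filled points for an adjusted p of at most 0.05. The filled points are Sqstm1 (-0.72), Grn (-0.46) and Tmem106b (0.43), all for KO minus WT under LPS.

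Other cell markers moved with the same comparison. The summed markers of border macrophages and monocytes ran from 463 to 555 TPM in LPS-treated WT and from 950 to 1507 in KO. Over the 44 untreated, LPS and IL4 libraries, Pf4 reached 1301 TPM, Ms4a7 432 and Mrc1 211. Ly6c2, Ccr2, Lyve1, Cd163 and F13a1 had medians under 1 TPM there, so the sum rested mainly on Pf4, Ms4a7 and Mrc1. Of the 8 markers, 6 were tested, 3 were called higher (Mrc1, Pf4 and Ly6c2) and 1 lower (Ms4a7). These marker names, like the microglia ones that follow, were chosen after their values were seen. Cd163 averaged 0.052 TPM in KO and 0 in WT. Microglia markers were called higher in KO for 4 of 10 (Cx3cr1, P2ry12, Tmem119 and Csf1r), or 4 higher and 2 lower without KO replicate 1, while 0 of 8 astrocyte, 0 of 10 oligodendrocyte-lineage and 0 of 8 neuron markers were called by limma. The part of these cells in the Sqstm1, Grn and Tmem106b differences was not tested.

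Partners of the 9 genes were read from 8 lists with the same fits. With LPS in WT, 4 of the lists had more lower than higher calls on both the TPM and quantile scales, an excess that was smaller or gone with median-of-ratios scaling. The same held over all genes, of which 13.9% were called higher and 61.9% lower on the TPM scale, 25.4% and 36.1% with quantile normalization, and 31.6% and 32.3% with median-of-ratios scaling. An autophagy list of 13 genes held other autophagy receptors, ATG8 proteins and partners of theirs, among them Keap1, Nfe2l2 and Rb1cc1. Of these 13, 1 was called higher, Keap1, and 10 lower, against 6 and 5 with median-of-ratios scaling. Keap1, the adaptor that releases NRF2 when p62 binds it, rose by 0.39 ± 0.10 to 41.1 ± 3.15 TPM. Calcoco1 fell by 1.70 ± 0.14 to 18.4 ± 3.88 TPM, and Map1lc3a, which encodes an ATG8 protein, fell by 1.89 ± 0.19 to 19.7 ± 3.09. Of 15 RNA-binding proteins related to TDP-43, 0 were called higher and 14 lower, against 4 and 4 with median-of-ratios scaling, with Tia1 (-1.42 ± 0.23), a stress granule protein, and Hnrnpc (-0.91 ± 0.10) lowest. Of the 30 other ALS and FTD genes, 4 were called higher and 24 lower, against 7 and 12 with median-of-ratios scaling. Tuba4a, a tubulin, rose by 1.46 ± 0.19, Pfn1, the actin-binding profilin, rose by 0.69 ± 0.10, Erbb4 fell by 1.71 ± 0.33 and Ang, the ribonuclease angiogenin, fell by 4.01 ± 0.12.

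Of 12 progranulin and lysosome partners, 2 were called higher and 8 lower with LPS in WT, against 4 and 5 with median-of-ratios scaling. Slpi, which protects progranulin from proteolysis, went from 6.56 ± 3.09 to 73.1 ± 37.9 TPM (3.21 ± 0.46), and Tmem106a rose by 1.25 ± 0.18. Sort1, the sortilin receptor that takes up progranulin, went from 65.8 ± 2.80 to 6.99 ± 1.72 TPM (-3.09 ± 0.20), and Ctsd, a lysosomal protease, fell by 2.16 ± 0.19. The superoxide and peroxide enzymes split evenly, 5 higher and 5 lower of 11, or 7 and 2 with median-of-ratios scaling. Sod2, the mitochondrial counterpart of Sod1, went from 106 ± 7.95 to 2334 ± 160 TPM (4.45 ± 0.14) and Prdx5 rose by 3.89 ± 0.10, while Gpx1 fell by 1.86 ± 0.13 and Ccs, the copper chaperone of SOD1, fell by 1.02 ± 0.11.

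The remaining 3 lists changed their balance with the scaling. VCP cofactors had 6 higher and 7 lower of 19 with LPS in WT, and 12 and 2 with median-of-ratios scaling. Derl2 (0.96 ± 0.09) and Nploc4 (0.81 ± 0.06) were highest, and Svip (-1.98 ± 0.27), a VCP inhibitor, and Ubxn7 (-1.01 ± 0.17) lowest. ESCRT-III genes had 3 higher and 6 lower of 12, and 9 and 1 with median-of-ratios scaling. Chmp4b (0.89 ± 0.09) and Ist1 (0.26 ± 0.11) were highest and Chmp1b (-0.92 ± 0.06) and Chmp6 (-0.53 ± 0.09) lowest, Chmp6 turning to 0.13 with median-of-ratios scaling. Proteasome shuttles had 0 higher and 4 lower of 9, and 6 and 0 with median-of-ratios scaling, with Ddi2 (-0.91 ± 0.11) and Bag6 (-0.67 ± 0.12) lowest, Bag6 turning to 0.01 with that scaling.

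For KO against WT under LPS the scaling mattered less, and the lists stood at different medians beside 0.01 for all genes. Of all genes, 14.4% were called higher in KO and 13.2% lower. Of 11 superoxide and peroxide enzymes, 8 were called higher and 0 lower, also with median-of-ratios scaling, quantile normalization and without KO replicate 1, and the list's median was 0.48. Catalase (Cat) had 252 ± 97.4 TPM in KO and 82.9 ± 28.6 in WT (1.55 ± 0.20), and Gpx1 had 455 ± 72.05 and 173 ± 16.9 (1.38 ± 0.12). Sod1 itself differed by 0.14 ± 0.09 (adjusted p = 0.26). Of 12 progranulin and lysosome partners, 7 were called higher and 3 lower (median 0.36), or 5 and 3 with median-of-ratios scaling. Sort1 had 31.3 ± 13.2 TPM in KO and 6.99 ± 1.72 in WT (1.92 ± 0.18) and Slpi differed by 1.31 ± 0.44. Tmem106a, the paralogue of Tmem106b, was lower by -0.85 ± 0.17, the other direction from Tmem106b, and Ctsb was lower by -0.45 ± 0.11.

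ESCRT-III genes had 0 higher and 5 lower of 12 (median -0.16), or 1 and 4 without KO replicate 1, with Ist1 (-0.67 ± 0.10) and Vta1 (-0.50 ± 0.11) lowest. VCP cofactors had 0 higher and 4 lower of 19, or 2 and 4 without that library, with Nploc4 (-0.45 ± 0.06) and Vcpip1 (-0.42 ± 0.08) lowest. Nploc4 had risen with LPS in WT. The autophagy list had 2 higher and 4 lower of 13, or 0 and 4 with median-of-ratios scaling. Nfe2l2, which encodes NRF2, a regulator of Sqstm1, was higher by 0.39 ± 0.09 and Gabarap by 0.23 ± 0.05, while Wdfy3 (-0.44 ± 0.13) and Rb1cc1 (-0.41 ± 0.11) were lower, Wdfy3 losing the call without KO replicate 1 (adjusted p = 0.066). Of the 30 other ALS and FTD genes, 7 were called higher and 4 lower, or 7 and 1 without that library. Chchd10 (1.24 ± 0.24), a mitochondrial protein, and Cfap410 (0.78 ± 0.16) were highest, and Sptlc1 (-0.57 ± 0.08), a serine palmitoyltransferase subunit, and C9orf72 (-0.38 ± 0.12) lowest, C9orf72 losing the call without that library (adjusted p = 0.077). RNA-binding proteins had 2 higher of 15, Hnrnpa2b1 (0.31 ± 0.09) and G3bp1 (0.28 ± 0.10). That count and the 4 lower of 30 other ALS and FTD genes lay near the shares of all genes, 14.4% higher and 13.2% lower. In untreated and IL4-treated cells, 0 genes of the 8 lists were called by limma for KO against WT.

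In pIC, where 3.40% of all genes were called higher in KO than in WT and 8.11% lower, some partners of the 9 genes were called although no member was. VCP cofactors had 1 higher and 5 lower of 19, against 1 and 3 after quantile normalization, or 1 and 1 with median-of-ratios scaling. Vcpip1, a deubiquitinase that works with VCP, had 49.4 ± 2.68 TPM in KO and 40.7 ± 1.96 in WT (0.27 ± 0.06), and Faf1 (-0.66 ± 0.14) and Ubxn6 (-0.41 ± 0.09) were lowest. Vcpip1 was lower in KO under LPS, and the difference between the treatments was not tested. The other ALS and FTD genes had 0 higher and 4 lower of 30, or 0 and 3 on either other scale. Sptlc1 had 29.1 ± 3.20 TPM in KO and 43.6 ± 3.12 in WT (-0.57 ± 0.09), and Hnrnpa1, which is also on the RNA-binding list, differed by -0.43 ± 0.09. Superoxide and peroxide enzymes had 0 higher and 2 lower of 11, Gpx4 (-0.39 ± 0.10) and Prdx3 (-0.35 ± 0.10), or 1 and 1 with median-of-ratios scaling, on which Gpx4 lost its call (adjusted p = 0.24). The autophagy list had 0 higher and 2 lower of 13, Calcoco1 (-0.46 ± 0.10) and Gabarapl1 (-0.24 ± 0.06), the latter not called with median-of-ratios scaling (adjusted p = 0.21). Chmp4b (0.20 ± 0.05) was the 1 called of 12 ESCRT-III genes, and RNA-binding proteins had 1 higher, G3bp2 (0.28 ± 0.05), and 1 lower, Hnrnpa1, of 15. In a fit of the compared groups alone, Gabarapl1 (adjusted p = 0.0502), Chmp4b (adjusted p = 0.072) and Prdx3 (adjusted p = 0.070) were not called, and Ubxn6 lost its call on both other scales (adjusted p = 0.14 and 0.054). None of the 12 progranulin and lysosome partners was called by limma on the TPM scale, and 1 was lower with quantile normalization. The median of all genes for this comparison was -0.11, or -0.02 with median-of-ratios scaling, on which 5.20% of all genes were called higher and 3.38% lower.

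**Figure D4:**
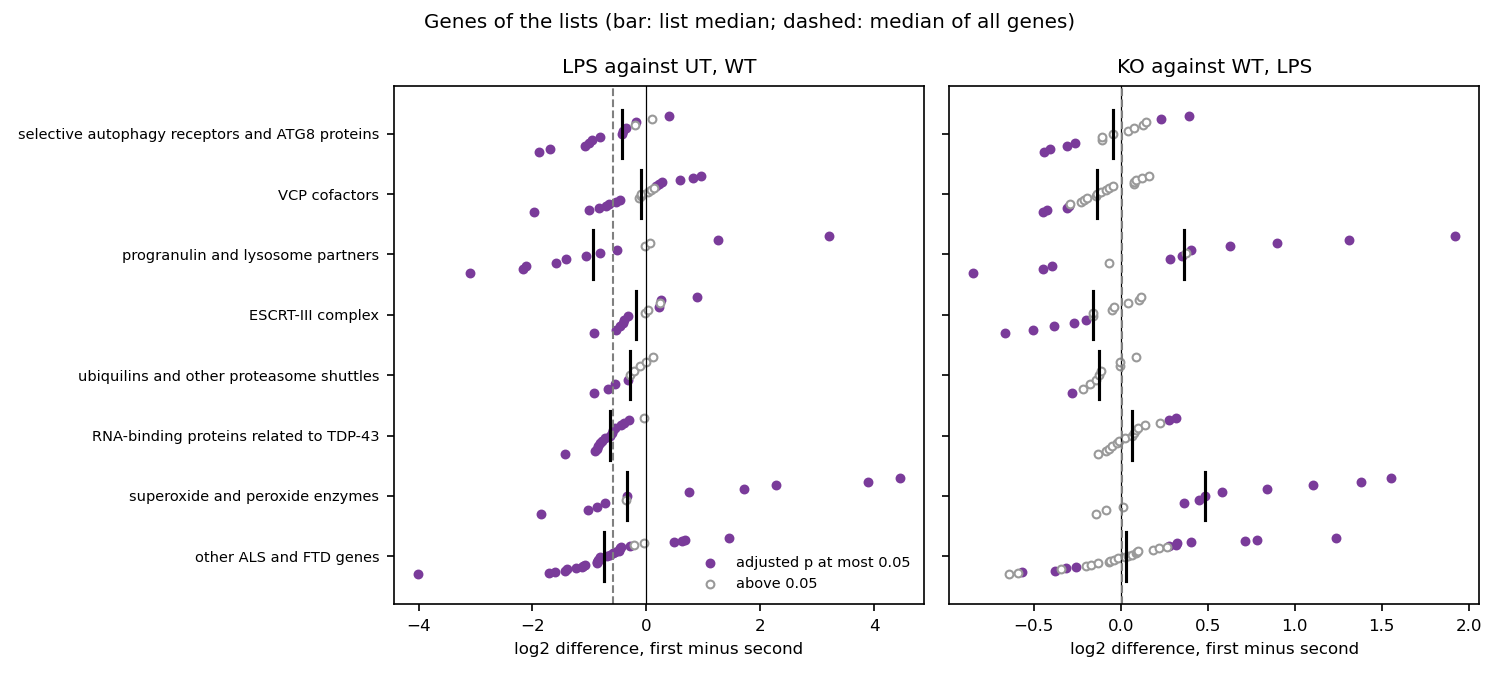
Log2 differences of the genes in the 8 lists of partners for LPS against UT in WT (left) and KO against WT under LPS (right), 1 point per tested gene, filled where the adjusted p is at most 0.05. Black bars are list medians and the dashed line is the median of all genes. On the right, 8 of 11 superoxide and peroxide enzymes are called and all 8 lie above 0.

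With IL4 in WT, 3.68% of all genes were called higher and 2.63% lower. The lysosome list had 4 higher and 0 lower of 12, among them Tmem106a, from 97.1 ± 22.8 to 221 ± 35.3 TPM (1.19 ± 0.18), and Psap, which encodes prosaposin, from 2297 ± 141 to 4001 ± 441.5 TPM (0.79 ± 0.13). With quantile normalization 3 were higher. Gpx1 rose by 0.58 ± 0.13 and Prdx5 fell by 0.46 ± 0.10 among the superoxide and peroxide enzymes. Tuba4a fell by 0.69 ± 0.19 among the other ALS and FTD genes, and 0 genes of the other 5 lists were called by limma, a count that reached 5 lower autophagy genes with quantile normalization.

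Across the 44 untreated, LPS and IL4 libraries, Optn and Chmp2b had the highest Pearson correlation of log2(TPM + 1) among the 36 pairs of members (r = 0.92), and Sqstm1 and Ubqln2 the lowest (r = -0.82). Likeness was sought among 10247 other genes with a mean of at least 5 TPM. Genes with symbols made of Gm and a number or ending in Rik were left out. Of those kept, the genes most like Optn were Cox7a2l, Lpar5 and Htra3 (r = 0.96 each). Those most like Sqstm1 were Ppp1r15a (r = 0.94), Ccrl2 (r = 0.94) and Glis3 (r = 0.93). Those most like Tmem106b were C1galt1 (r = 0.95), Tmem184c (r = 0.92) and Uhmk1 (r = 0.91), and those most like Ubqln2 were Dcaf8, Fut10 and Ndrg3 (r = 0.99 each). The points share libraries and a common total, so these values describe likeness only. Over the 12 groups, mean levels of the members spanned from 1.29 times for Vcp to 3.87 times for Sqstm1 between the lowest and the highest group. When the groups were put in order of level, at most 2 of the 11 steps between neighbours exceeded the larger of their SDs in any member: 2 for Sqstm1, Ubqln2 and Chmp2b, 1 for Optn, Grn and Sod1, and 0 for Vcp, Tmem106b and Tardbp. There were 6 members that overlap a gene on the opposite strand, and no strand setting of the counting is stated in the sources used here, so their values may hold reads of Mrnip (Sqstm1), 4930551O13Rik (Optn), 1700022I11Rik (Vcp), Fam171a2 (Grn), Masp2 (Tardbp) or Scaf4 (Sod1).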

How the data were processed

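Expression values were deposited by the authors as TPM per gene in separate tables for 44 (UT, LPS, IL4) and 15 (pIC) libraries, and per the submitters' processing notes FastQC, Trimmomatic, DRAGEN and Picard were used with the mm10 build, without versions. TPM fixes every library's total (999806 to 999936 summed), so depth is unknown. Values were analysed as log2(TPM + 1) with limma 3.58.1 in R 4.3.3 (lmFit, eBayes with trend), a mean per group and 1 spread per gene and table. Genes were tested if 4 or more libraries of a table reached 1 TPM, 15908 and 13919 of them. The 24 comparisons covered treatments within genotype, genotypes within treatment, and differences of responses. No test crossed the tables. The procedure was tested on simulated data. Members, lists and alternatives were chosen with earlier results of these data known. Named genes were all members, Tbk1, up to 2 highest and 2 lowest called genes per list, and the 3 genes most like each member spanning at least 1 on the log2 scale. Results for KO against WT under LPS and pIC in 1 of the lists are not reported here. Same-numbered libraries deviated together, every pair above r = 0.1 across genes, for LPS and IL4 against UT in WT and KO and for untreated HET against WT. Gene positions are from GENCODE M21. No library columns were identical.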

Additional observations from a re-analysis of the deposited data

Results flagged for a closer look

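In the response to LPS, KO differed from WT in 3 members that passed the test of the difference itself: Sqstm1 (-0.73), Grn (-0.52) and Vcp (0.39), on the log2(TPM + 1) scale. Of all genes, 16.4% passed that test. WT also lacked Cre, so these differences hold its presence as well. KO and HET share Cre, and their responses to LPS differed for 0 members, where 13.8% of all genes were called. The Grn and Vcp calls were lost in several fits that left out 1 library and with no filter on low values, while the Sqstm1 call was kept in each. Sqstm1 rose in both genotypes, by less in KO, and all 5 LPS-treated KO libraries lay below all 5 WT ones. On the TPM scale Grn fell in KO and was not called in WT, and Vcp rose in KO and was not called in WT. With median-of-ratios scaling both genes were called higher in WT, and Grn was not called in KO.

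In 2 of 108 member and group combinations a single library stood far from the others, where chance gives about 1 in 20. Grn was lowest in untreated KO replicate 3 (1126 TPM, the other 4 from 1473 to 1557), and Ubqln2 was lowest in HET LPS replicate 5 (20.1 TPM, the other 4 from 28.3 to 30.8).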

How the results depend on the processing

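Of 216 member results, 31 were called and 14 of these were called in every alternative. A pseudocount of 0.1 changed 0 calls. Median-of-ratios scaling reversed these differences between LPS and UT: in WT, Vcp (0.66), Grn (0.58), Tardbp (0.24), Chmp2b (0.10) and Sod1 (0.28). In HET it reversed Grn (0.14), Tardbp (0.50) and Sod1 (0.31), in KO Tardbp (0.42) and Sod1 (0.30), and among partners in WT, Chmp6 (0.13) and Bag6 (0.010). That scaling sets the median of all genes near 0. Counts of members called for KO against WT under LPS, 3 as reported, were 5 with median-of-ratios scaling, 5 with quantile normalization, 1 with only the compared groups and from 2 to 5 when 1 library was left out, the calls added by the scalings being Vcp and Ubqln2. For KO against HET under LPS, 0 as reported, they were 1, 2 with quantile normalization, and from 0 to 2. HET against WT under LPS gave from 0 to 1 and KO against WT in pIC from 0 to 1 when 1 library was left out. The difference between the KO and WT responses to LPS gave 1 of the reported 3 with no filter on low values, and from 1 to 4 when 1 library was left out. IL4 in KO gave 2 with quantile normalization, 2 with only the compared groups, and from 1 to 2 when 1 library was left out. With the replicate number as a block, counts were 2 for IL4 in KO, 5 for KO against WT under LPS, 3 for KO against HET under LPS, 1 for KO against WT in pIC, 5 for the KO minus WT response to LPS and 1 for the KO minus HET response. The block lost 0 member calls and gained 11. Where not every same-numbered pair exceeded r = 0.1, some still did: 4 of 5 for IL4 against UT in HET, and 1 of 5 for KO against WT under LPS. The labels do not say what a number shares. Counts over all genes moved with many of these settings. For KO against WT under LPS, 30.9% of all genes were called with median-of-ratios scaling, 30.0% with quantile normalization, 23.2% with only the compared groups and 34.5% with the block, against 27.6% as reported. For KO against HET under LPS these were 27.0%, 25.3%, 19.0% and 29.9%, against 24.0%. IL4 in KO gave 9.72% with quantile normalization, 9.19% with only the compared groups and 12.7% with the block, against 8.41%. The KO minus WT response gave 7.51% with no filter, where more genes were tested, and 21.0% with the block, against 16.4%. The block gave 16.8% for KO against WT in pIC and 19.7% for the KO minus HET response, against 11.5% and 13.8%. The causes of these changes were not tested. The alternatives for lists of partners were added after the data were seen. TPM without counts sets no limit of detection, and the number of libraries limits the precision.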
